A study of Mus musculus with 8 samples.

Results

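The 10 genes described here, used to mark resident fibroblasts of the heart, or states of them, were followed by bulk RNA sequencing of mouse hearts. They are 2 identity genes, Pdgfra and Tcf21, and 8 state genes, Dpep1, Pi16, Dpt, Inmt, Cpxm2, Penk, Meox1 and Wif1, out of 49315 genes in the count table. The 10 genes were chosen by name with their counts and their male minus female differences in these libraries in view, so those differences are given as a description and without a p-value. The hearts came from C57BL/6 mice, an inbred laboratory strain, aged 8 weeks, with no genotype or treatment named, and the 8 libraries form 2 groups, 4 female and 4 male. Neither the part of the heart nor the animal behind a library is given in the labels. P-values therefore measure only the spread among these samples, which may be technical.

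Resident fibroblasts of the heart arise largely from the epicardium, build and maintain the collagen matrix, and are commonly recognised by the receptor PDGFRα and the transcription factor TCF21. Within this population, single-cell studies describe states that differ in their secreted products, among them adventitial cells that make PI16, cells that make the Wnt inhibitor WIF1, and activated cells that arise after injury. In bulk RNA a lower level can come from fewer cells of a type or from less RNA per cell, and these cannot be told apart here. The libraries also hold RNA of all other heart cells, so a transcript is not assigned to fibroblasts by its name.

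Library totals were 32746054 to 35467832 counts in females and 39612848 to 47097765 in males, so that all male libraries were deeper. Mitochondrial genes took 9.96 to 11.39% of counts in females and 12.09 to 12.53% in males, and the part of depth and of this share in the members' differences was not tested. All 10 genes passed the filter on low counts, with 95 counts (Penk, female replicate 1) to 4456 counts (Pi16, male replicate 3) in a library. Pan-fibroblast markers such as the collagen genes were present in all libraries. Their summed level was 3587 to 4502 CPM over 20 genes (CPM, counts relative to the TMM-scaled library size). The largest part of that sum was the gelsolin gene Gsn, named after its values were seen, at 2072 ± 83.8 CPM in females and 1936 ± 127 in males. The sum is therefore not a measure of the collagen genes. Male replicate 4 stood apart, with a summed level of 503 CPM over 7 atrial myocyte markers against 2355 to 2824 in the other libraries, and it also had the lowest summed pan-fibroblast level. Female replicate 3 held 24.3 CPM of 8 lung epithelial markers against 0.567 to 4.06 elsewhere. Values without these libraries are given below.

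The members fell into those that were higher in males and those that were not. Dpep1, Inmt, Cpxm2 and Penk were 1.63 to 2.35-fold higher in males with no overlap between the sexes, and the identity genes Pdgfra and Tcf21 had log2 fold changes of -0.13 and -0.30 that did not pass. Of the 10 members, 4 passed an adjusted p of 0.05 in edgeR's quasi-likelihood test, all higher in males, and 0 passed as higher in females. Over all 16180 genes tested, 3.79% passed, 2.03% as higher in males and 1.76% as higher in females. The sexes did not overlap in 7 of the 10 members, against 12.0% of all genes tested. Because this contrast was in view when the genes were chosen, nothing is read from these counts. Each log2 fold change below is the male minus the female level and is followed by its standard error (SE), and coordinates are those of the deposited tables on GRCm38.

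**Figure D1:**
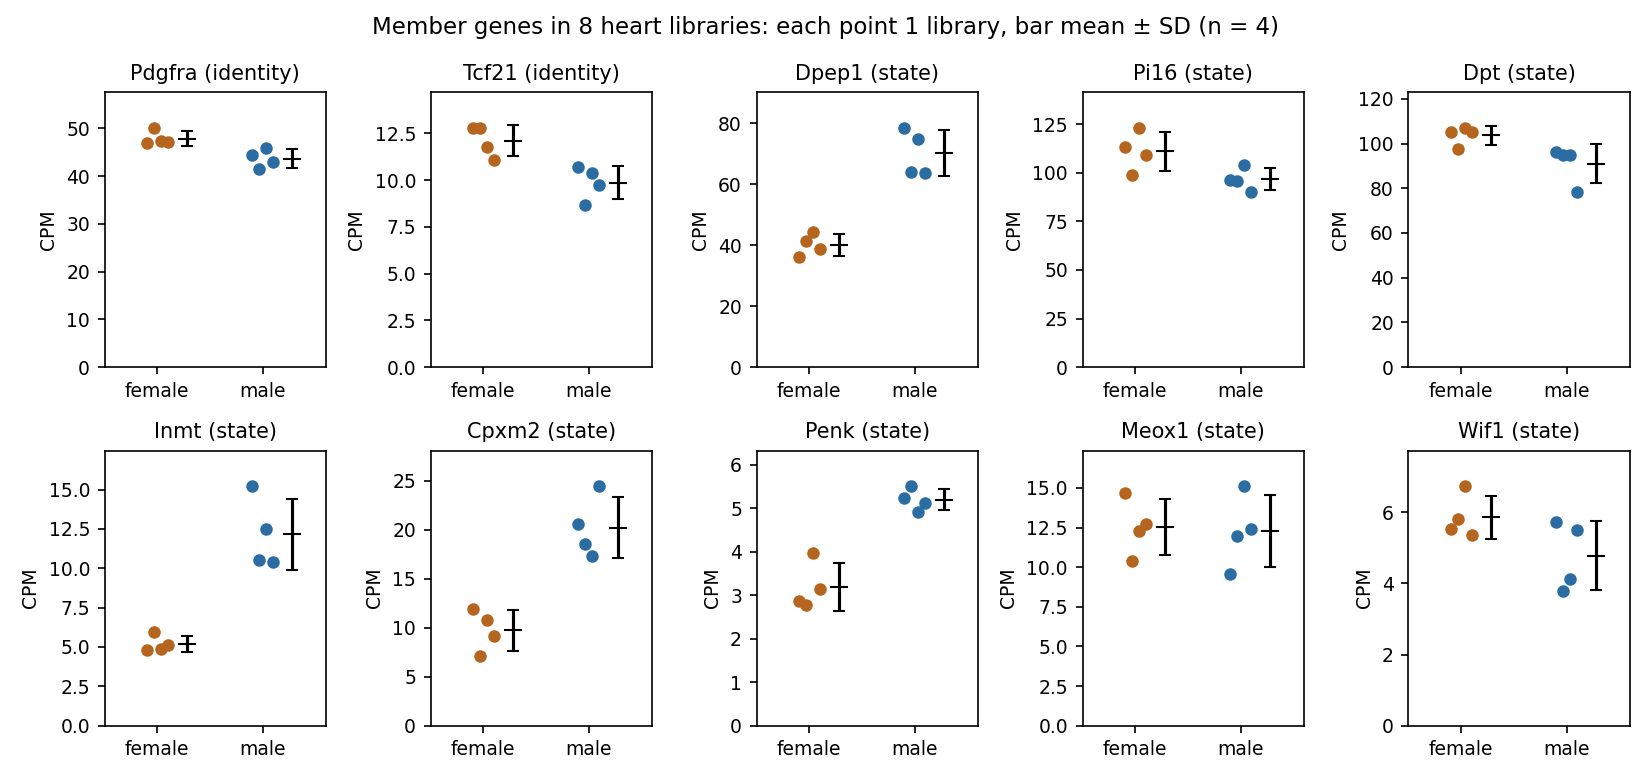
Level of each member in CPM (y axis, from 0) in the 4 female and 4 male libraries, each point 1 library and the bar the mean ± SD. Dpep1, Inmt, Cpxm2 and Penk show male points above all female points, whereas Pi16, Meox1 and Wif1 overlap.

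Pdgfra encodes the receptor tyrosine kinase for platelet-derived growth factors (chromosome 5, 75152292 to 75198215, forward strand, 27 exon blocks). Its level was 46.9, 50.1, 47.3 and 47.1 CPM in female replicates 1 to 4 and 44.4, 41.4, 45.9 and 43.0 CPM in male replicates 1 to 4. The ranges of the sexes lay side by side without overlap, and the log2 fold change of -0.13 (SE 0.04) did not pass the adjusted threshold. It was the steadiest member, with a coefficient of variation of 3.13% in females and 4.43% in males.

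Tcf21 encodes a basic helix-loop-helix transcription factor needed for fibroblast formation in the developing heart (chromosome 10, 22817279 to 22820128, reverse strand, 2 exon blocks). It stood at 12.8, 12.8, 11.8 and 11.1 CPM in females and at 10.7, 8.68, 10.4 and 9.73 CPM in males. All male values were below all female ones, with a gap of 0.453 CPM between the nearest libraries. The log2 fold change was -0.30 (SE 0.08) and did not pass in the edgeR fit, though it passed in DESeq2 and without a filter on low counts.

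Inmt encodes indolethylamine N-methyltransferase, which methylates tryptamine and related amines (chromosome 6, 55170626 to 55175043, reverse strand, 3 exon blocks). The female libraries held 4.83, 5.92, 4.85 and 5.10 CPM and the male ones 15.2, 10.5, 12.5 and 10.4 CPM. Every male library was above every female one, and male replicate 1 was the highest. Inmt had the largest difference among the members, a log2 fold change of 1.23 (SE 0.13), 2.35-fold.

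Cpxm2 encodes a secreted protein of the carboxypeptidase E family that is regarded as lacking enzyme activity (chromosome 7, 132032687 to 132154739, reverse strand, 16 exon blocks). Its values were 11.9, 7.10, 10.8 and 9.10 CPM in females and 20.6, 18.5, 17.3 and 24.4 CPM in males. The sexes did not overlap although the gene varied widely within females, with a coefficient of variation of 21.6%. The log2 fold change was 1.06 (SE 0.15), 2.08-fold, and the highest library was male replicate 4.

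Dpep1 encodes a membrane-bound dipeptidase that cleaves cysteinyl-glycine and cysteinyl leukotrienes (chromosome 8, 123186242 to 123201812, forward strand, 12 exon blocks). It measured 36.0, 41.4, 44.2 and 38.9 CPM in females and 78.5, 64.1, 74.9 and 63.7 CPM in males. The lowest male library was 19.5 CPM above the highest female one, the widest gap of the members in CPM. Its log2 fold change was 0.81 (SE 0.08), 1.75-fold.

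Penk encodes proenkephalin, the precursor of the enkephalin opioid peptides (chromosome 4, 4133531 to 4138819, reverse strand, 3 exon blocks). The values were 2.87, 2.77, 3.97 and 3.13 CPM in females against 5.24, 5.50, 4.92 and 5.11 CPM in males. All male libraries were higher, and female replicate 3 was the female library nearest to them. The log2 fold change was 0.70 (SE 0.12), 1.63-fold.

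Without male replicate 4 the log2 fold changes of these genes were 1.30 for Inmt, 0.95 for Cpxm2, 0.85 for Dpep1 and 0.71 for Penk. Without female replicate 3 they were 1.20, 1.11, 0.86 and 0.83 in the same order. The values of the identity genes were -0.12 and -0.14 for Pdgfra and -0.29 and -0.31 for Tcf21 without male replicate 4 and without female replicate 3.

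Pi16 encodes a secreted peptidase inhibitor of the CAP family that marks adventitial fibroblasts (chromosome 17, 29318877 to 29329413, forward strand, 4 exon blocks). It was at 113, 98.6, 123 and 109 CPM in females and 96.3, 95.9, 104 and 90.3 CPM in males. The sexes overlapped, and the log2 fold change of -0.19 (SE 0.06) did not pass. It was -0.16 without male replicate 4 and -0.14 without female replicate 3.

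Dpt encodes dermatopontin, a small matrix protein that binds decorin and promotes collagen fibril assembly (chromosome 1, 164796644 to 164824266, forward strand, 4 exon blocks). Its levels were 105, 97.4, 107 and 105 CPM in females and 96.1, 95.0, 94.9 and 78.3 CPM in males. Male replicate 4 lay well below the other 3 males, which sat just under the lowest female. The log2 fold change was -0.19 (SE 0.06) with all libraries, -0.12 without male replicate 4 and -0.17 without female replicate 3, and passed in none of these fits.

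Meox1 encodes a homeobox transcription factor linked to fibroblast activation (chromosome 11, 101877510 to 101894374, reverse strand, 3 exon blocks). It ranged over 14.7, 10.4, 12.3 and 12.7 CPM in females and 9.56, 12.0, 15.1 and 12.4 CPM in males. Both the highest and the lowest library were male, and the log2 fold change was -0.02 (SE 0.13). Over the alternative fits that value ran from -0.14 to 0.08, so it has no settled sign, and it was -0.03 both without male replicate 4 and without female replicate 3.

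Wif1 encodes a secreted inhibitor that binds Wnt ligands (chromosome 10, 121033960 to 121100650, forward strand, 10 exon blocks). Females held 5.53, 5.81, 6.73 and 5.37 CPM and males 5.73, 3.78, 4.13 and 5.50 CPM. Male replicates 1 and 4 were within the female range. The log2 fold change of -0.29 (SE 0.14) did not pass, and it was -0.37 without male replicate 4 and -0.22 without female replicate 3.

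**Figure D2:**
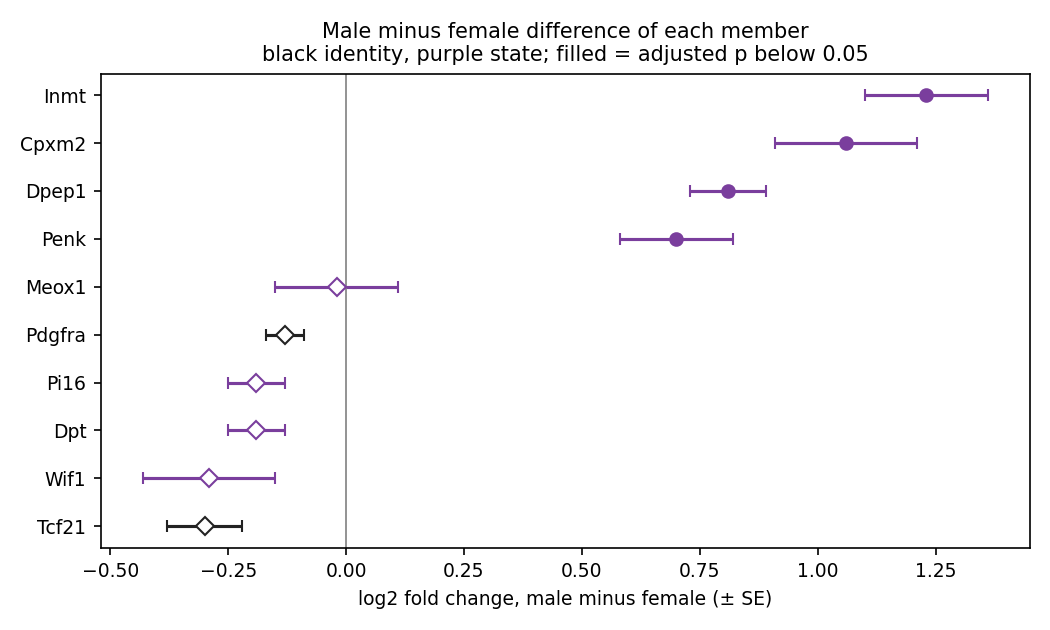
Log2 fold change, male minus female, with its SE (x axis) for each member, ordered by value, identity genes in black and state genes in purple. Filled points passed an adjusted p of 0.05 and lie between 0.70 and 1.23, while open points lie between -0.30 and -0.02.

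Annotated exons of other genes overlap 3 members. Penk shares 233 exonic bases with the opposite-strand gene A830012C17Rik, which held 18 counts over all libraries, and Cpxm2 shares 351 with Gm15677, which held 4. Pdgfra overlaps Gm42802, Gm42803 and Mir7025, with 0, 30 and 18 counts. These totals are small beside the members' own 1322, 4789 and 14063 counts. They do not show whether reads in the shared bases were left out of both genes, which was not tested.

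Levels of different genes were compared per kilobase of summed exon length (RPKM). Over all 8 libraries Dpt was the most abundant at 56.5 RPKM, and Pi16 at 26.0 and Dpep1 at 22.2 followed. The transcription factor genes Tcf21 at 9.0 and Meox1 at 5.56, the enzyme gene Inmt at 5.42 and the receptor gene Pdgfra at 4.56 formed the middle. Cpxm2 at 3.24, Penk at 2.56 and Wif1 at 2.19 RPKM were the lowest. Among all genes tested, these means lay between the 44.4th percentile (Wif1) and the 95.3rd (Dpt).

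The order of levels differed between the sexes. In females the order was Dpt, Pi16, Dpep1, Tcf21, Meox1, Pdgfra, Inmt, Wif1, Cpxm2 and Penk, and the ranges overlapped between Meox1 and Pdgfra, between Wif1 and Cpxm2 and between Cpxm2 and Penk. In males it was Dpt, Dpep1, Pi16, Tcf21, Inmt, Meox1, Cpxm2, Pdgfra, Penk and Wif1, with overlap between Dpep1 and Pi16 and between each neighbour from Tcf21 to Pdgfra. Inmt was at 3.24 ± 0.321 RPKM in females, below Pdgfra at 4.77 ± 0.149, and at 7.61 ± 1.41 in males, above Pdgfra at 4.36 ± 0.193 (SD, n = 4). Penk at 3.18 ± 0.15 RPKM in males lay above Wif1 at 1.97 ± 0.401, while in females Penk at 1.95 ± 0.333 lay below Wif1 at 2.41 ± 0.25.

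State genes were next expressed relative to the identity genes, as log2 CPM minus the mean log2 CPM of Pdgfra and Tcf21 in the same library. That identity mean was 4.59 ± 0.06 in females and 4.38 ± 0.10 in males (SD, n = 4). The identity mean varied little, so each value below is close to the gene's own fold change shifted by the difference between these means, and it adds no support to the differences above. Dpep1, Inmt, Cpxm2 and Penk again showed no overlap between the sexes.

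Inmt lay at -2.33, -2.09, -2.27 and -2.16 log2 units from the identity mean in females and at -0.51, -0.85, -0.80 and -0.97 in males, a difference in means of 1.43. Cpxm2 lay at -1.04, -1.83, -1.12 and -1.33 in females and at -0.08, -0.03, -0.34 and 0.25 in males, a difference of 1.28. Dpep1 was at 0.55, 0.71, 0.90 and 0.76 in females and 1.85, 1.76, 1.77 and 1.63 in males, a difference of 1.02. Measured against identity, Dpep1 had a smaller spread in males (SD 0.09) than Cpxm2 (SD 0.24).

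Penk was at -3.07, -3.17, -2.56 and -2.85 in females and -2.04, -1.77, -2.14 and -1.99 in males, a difference of 0.92. Pi16 differed by 0.02 between the sexes on this scale, with 1.96 to 2.37 in females and 2.14 to 2.34 in males. Dpt also differed by 0.02, with 1.94 to 2.20 and 1.93 to 2.32. For these adventitial and matrix genes the sexes overlapped relative to identity, as they did for Meox1 (difference 0.18) and Wif1 (difference -0.09).

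**Figure D3:**
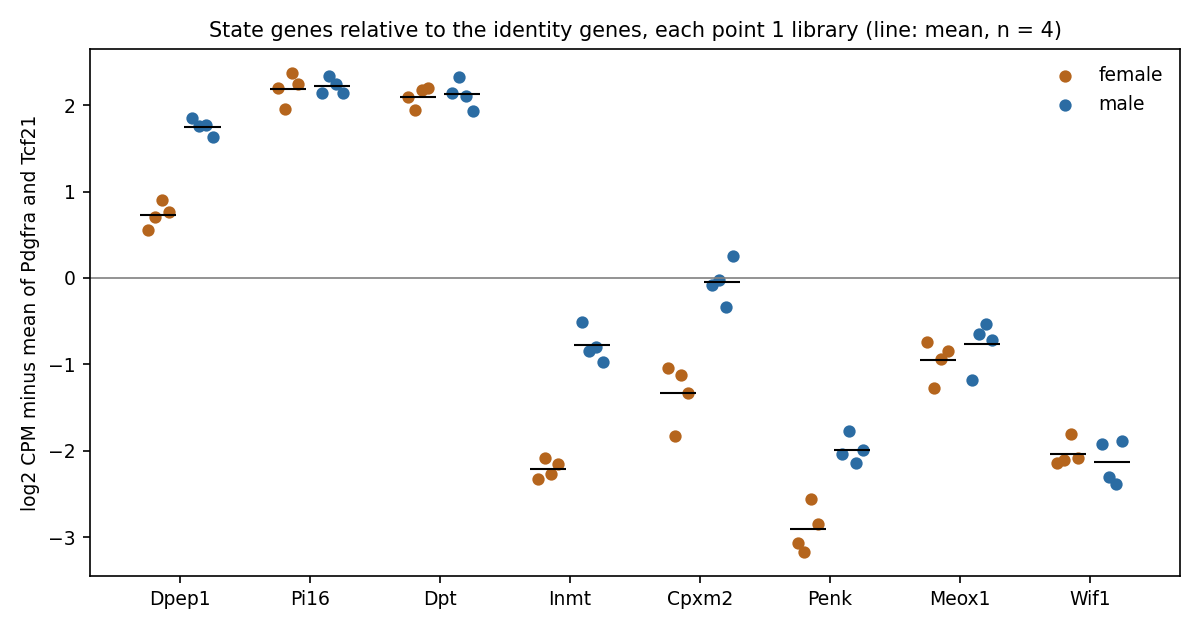
Log2 CPM of each state gene minus the mean log2 CPM of Pdgfra and Tcf21 (y axis), each point 1 library, females brown and males blue, with the group mean as a line. Dpep1, Inmt, Cpxm2 and Penk separate by 0.92 to 1.43, and Pi16 and Dpt lie at the same height in both sexes.

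With Pdgfra alone as the identity measure the differences were 1.35 for Inmt, 1.20 for Cpxm2, 0.94 for Dpep1 and 0.84 for Penk. With the mean of the pan-fibroblast markers they were 1.39, 1.24, 0.98 and 0.89. With the mean of Pdgfra and Tcf21 and 1 library left out they ran, in the same order, from 1.34 to 1.49, 1.11 to 1.38, 0.96 to 1.08 and 0.84 to 1.04. For Pi16 that difference ran from -0.05 to 0.08 and for Dpt from -0.04 to 0.09.

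The variation between libraries of 1 sex was used to describe how the members move together apart from sex. After each sex mean was subtracted, Pearson's r over the 8 libraries was 0.75 between Pdgfra and Tcf21, the highest of the 45 pairs. Inmt had r of 0.72 to Pdgfra and 0.66 to Tcf21, and Dpep1 had r of 0.72 to Inmt. Cpxm2 had r of -0.55 to Pdgfra but -0.01 to Tcf21. Penk had r of -0.44 to Pdgfra and -0.47 to Tcf21, and 0.33 to Dpep1. Pi16 and Dpt were paired at 0.67 and had r of -0.07 and -0.05 to Pdgfra. Of the 45 pairs 24 were positive, and the points share libraries, depth and scaling, so these are descriptions.

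**Figure D4:**
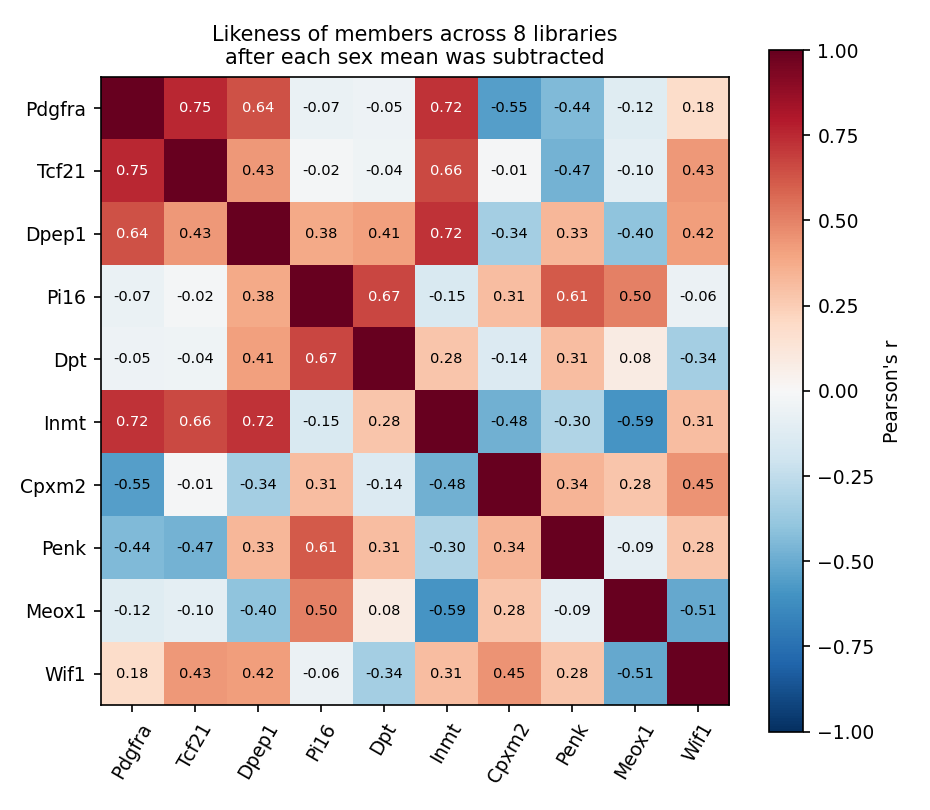
Pearson's r between members across 8 libraries after subtraction of each sex mean, with both axes listing the members and colour giving r from -1 to 1. Pdgfra, Tcf21, Inmt and Dpep1 show r of 0.43 to 0.75 with each other, and Penk shows -0.44 and -0.47 to Pdgfra and Tcf21.

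By the same measure, 9026 genes that carry no clone name and whose mean log2 CPM reached 3 were compared with the identity mean. Those most like it were Dusp27 (r = 0.966), Pbx2 (0.955), Snx32 (0.953), Arhgap26 (0.936) and Pik3c3 (0.930). None of these genes is on a fibroblast list, and none was called between the sexes. The 20 pan-fibroblast markers had r from -0.47 to 0.50 to the identity mean, with a median of -0.12 and 7 positive. Set against the same 9026 genes, Inmt (r = 0.72) lay at the 97.3rd percentile and Dpep1 (0.52) at the 90.0th. The other state genes lay between the 9.8th (Penk) and the 80.8th (Wif1). State genes were placed in this set whatever their own level: Penk and Wif1 lay below a mean log2 CPM of 3, and Inmt close to it.

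Short promoter windows are printed for the 3 members with the largest male excess that have one and for the matrix and adventitial genes Dpt and Pi16, which did not pass. Windows for 8 of the 10 members were taken from RefSeq (GRCm38.p6), each from 250 bases before to 50 after the annotated start, 5′ to 3′ on the gene's strand. Motif positions count from this RefSeq start, which can differ from the gene ends of the deposited tables. For Inmt the deposited end, 55175043, lies upstream of it. Capitals mark 3 motifs searched on both strands: the E-box core CAGCTG, of the kind bound by helix-loop-helix factors such as TCF21, the TATA box TATAAA and the GC box GGGCGG.
Inmt promoter (chr6:55174941-55175240, reverse strand): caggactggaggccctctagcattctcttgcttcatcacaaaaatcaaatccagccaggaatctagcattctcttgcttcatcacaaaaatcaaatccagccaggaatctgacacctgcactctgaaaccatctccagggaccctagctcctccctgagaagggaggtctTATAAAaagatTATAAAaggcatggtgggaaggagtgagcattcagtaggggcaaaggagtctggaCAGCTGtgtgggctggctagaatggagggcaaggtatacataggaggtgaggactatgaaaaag
Dpep1 promoter (chr8:123185985-123186284, forward strand): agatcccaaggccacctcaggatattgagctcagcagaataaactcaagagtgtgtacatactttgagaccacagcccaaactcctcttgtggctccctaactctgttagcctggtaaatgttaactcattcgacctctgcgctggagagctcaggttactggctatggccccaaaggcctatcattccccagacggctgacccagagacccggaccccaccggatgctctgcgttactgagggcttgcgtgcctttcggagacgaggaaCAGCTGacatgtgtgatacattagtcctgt
Cpxm2 promoter (chr7:132154692-132154991, reverse strand): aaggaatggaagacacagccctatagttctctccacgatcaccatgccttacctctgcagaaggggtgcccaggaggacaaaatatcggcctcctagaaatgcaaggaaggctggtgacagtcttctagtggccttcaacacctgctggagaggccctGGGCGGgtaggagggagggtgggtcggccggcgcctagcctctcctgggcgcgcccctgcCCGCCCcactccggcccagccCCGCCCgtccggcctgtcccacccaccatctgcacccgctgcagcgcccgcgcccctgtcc
Dpt promoter (chr1:164796413-164796712, forward strand): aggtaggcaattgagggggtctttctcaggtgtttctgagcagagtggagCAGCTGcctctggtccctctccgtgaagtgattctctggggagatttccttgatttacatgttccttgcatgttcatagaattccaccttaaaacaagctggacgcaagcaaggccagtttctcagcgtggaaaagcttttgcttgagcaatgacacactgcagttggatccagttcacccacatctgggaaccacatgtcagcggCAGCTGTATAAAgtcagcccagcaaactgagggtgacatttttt
Pi16 promoter (chr17:29318632-29318931, forward strand): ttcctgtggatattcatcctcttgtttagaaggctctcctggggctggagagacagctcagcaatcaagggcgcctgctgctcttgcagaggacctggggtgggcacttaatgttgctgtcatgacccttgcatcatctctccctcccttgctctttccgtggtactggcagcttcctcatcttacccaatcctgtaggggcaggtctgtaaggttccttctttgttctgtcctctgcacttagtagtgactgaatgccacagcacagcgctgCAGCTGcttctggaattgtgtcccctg

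CAGCTG occurred in 4 of the 8 windows, those of Inmt, Dpep1, Dpt and Pi16, against 16.3% of 32851 windows in the table. In Inmt it began 14 bases before the annotated start, in Dpep1 20 bases after it and in Pi16 23 bases after it. Dpt held it 200 bases before and 6 bases after the start, the second copy directly followed by TATAAA. The motif was thus present in both genes that were higher in males and genes that did not pass. Inmt also held TATAAA 80 and 69 bases before the start (13.6% of all windows hold this motif), and the Wif1 window, not printed, held it on the opposite strand. Cpxm2 lacked the E-box core and held GGGCGG 3 times, 2 of them on the opposite strand, and Wif1 held it 2 times (35.7% of all windows hold it). The homeodomain core TAATTA, of the kind bound by MEOX1, was in 0 of the 8 windows and in 5.29% of all. A match is only a run of letters, and no binding was measured.

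Other genes, from 5 fibroblast lists, were counted beside the members. The lists of transcription factors and of Wnt genes are not limited to fibroblasts. The 5 lists held 78 tested genes, none of them a member. Of these, 14 (17.9%) were higher in females and 0 in males, against 1.76% and 2.03% of all genes tested. Tbx5, Tbx20 and Acta2, among the 14, do not report on fibroblasts alone. Of the 78 genes, 62 had a negative log2 fold change (79.5%, against 50.3% of all genes), with a median of -0.15 against -0.001. These lists, like those that follow, were chosen with earlier results of these data known. Nothing is therefore read from these counts, and the list counts and p-values below are descriptions. The number higher in females depended on single libraries: 4 without female replicate 3, 7 without female replicate 1 or male replicate 4, 8 without male replicate 3, 9 without female replicate 2, female replicate 4 or male replicate 1 and 11 without male replicate 2.

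All 20 pan-fibroblast markers had a negative log2 fold change (median -0.16), and 4 were higher in females. The small leucine-rich proteoglycan gene Lum averaged 70.8 ± 3.18 CPM in females against 44.7 ± 4.35 in males (log2 fold change of -0.66, edgeR adjusted p = 0.00028), and the fibrillar collagen gene Col3a1 at 390 ± 17.9 and 307 ± 18.2 (-0.35, adjusted p = 0.0040). Col6a1 (-0.22) and Abca8a (-0.19), named after their values were seen, completed the 4. Lum and Col3a1 passed in all 8 fits lacking 1 library, but Col6a1 in 2 and Abca8a in 1. The number called was 2 without female replicate 1, 3 or 4 or male replicate 1 or 4.

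Of 14 genes listed for the Pi16-positive adventitial state, 3 passed as higher in females and 0 in males (median -0.14). The log2 fold change was negative in 10 and positive in 4. Other heart cells can also hold these transcripts, so the list does not report on that state alone. Tppp3, a tubulin-binding protein gene, averaged 38.9 ± 4.22 CPM in females against 29.2 ± 2.79 in males (-0.42, edgeR adjusted p = 0.019, 0.054 without female replicate 3). The tetranectin gene Clec3b was lower in males by the same test (-0.34, adjusted p = 0.027), but passed in 2 of 8 fits lacking 1 library, with 0.075 without male replicate 3. The third was Cd55 (-0.29), a complement-regulating surface protein gene named after its values were seen, which passed in 1 of those 8 fits. The number higher in females was 0 without female replicate 3 and 1 without female replicate 1 or male replicate 1, 3 or 4. Without male replicate 2 it was 3, with 1 gene higher in males.

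Among 16 genes of lineage transcription factors, 2 passed as higher in females and 0 in males (median -0.11). Tbx20, a T-box factor of the heart, averaged 72.2 ± 4.56 CPM in females against 60.4 ± 1.65 in males (-0.26, edgeR adjusted p = 0.013) and passed with each library left out. Tbx5, also a T-box factor of the heart, was at 44.9 ± 2.39 and 33.7 ± 4.53 (-0.42, adjusted p = 0.020) and missed the threshold without female replicate 2 (0.058) and without male replicate 3. Both are also expressed in heart muscle, so they do not report on fibroblasts alone.

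Of 15 activation genes, 2 passed as higher in females and 0 in males (median -0.08). The fibronectin gene Fn1 averaged 94.6 ± 16.8 CPM in females against 68.2 ± 3.04 in males (-0.47, edgeR adjusted p = 0.024), and the smooth muscle actin gene Acta2 at 158 ± 6.35 and 121 ± 17.7 (-0.39, adjusted p = 0.032). Without female replicate 3 these p were 0.064 and 0.083, and the genes passed in 5 and 2 of 8 fits lacking 1 library. The number called was 0 without female replicate 3 or male replicate 3 or 4 and 1 without female replicate 1, 2 or 4. Acta2 is a smooth muscle gene by name, so it does not report on fibroblasts alone. Cthrc1, a marker of injury-activated fibroblasts, had 53 counts over all 8 libraries and was not tested.

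**Figure D5:**
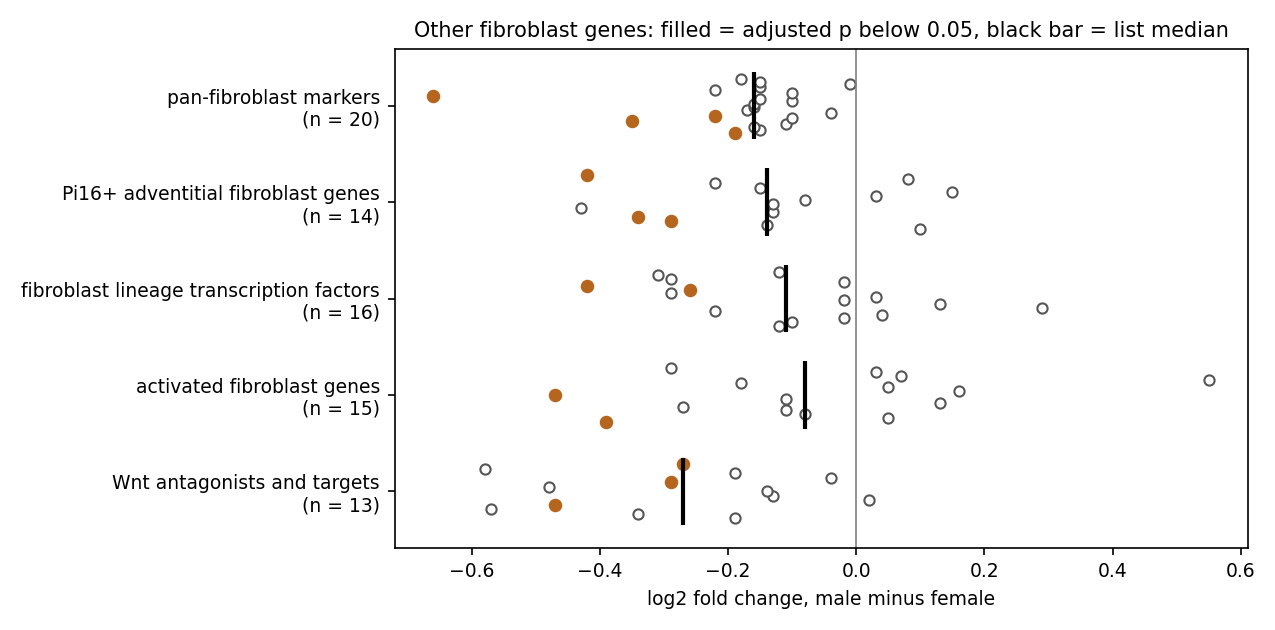
Log2 fold change, male minus female (x axis), of each tested gene in the 5 fibroblast lists (rows), with the list median as a black bar and genes of adjusted p below 0.05 filled. The medians lie between -0.27 and -0.08, and all filled points are below 0.

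Around Wif1, 13 Wnt antagonist and target genes were tested, of which 3 passed as higher in females and 0 in males (median -0.27). The secreted Frizzled-related genes Frzb (5.09 ± 0.535 CPM in females, 3.67 ± 0.0742 in males, -0.47, edgeR adjusted p = 0.020) and Sfrp1 (21.1 ± 1.59 and 17.2 ± 0.635, -0.29, adjusted p = 0.022) were among them. The third was Znrf3 (-0.27), a ubiquitin ligase gene that limits Wnt receptors, named after its values were seen, which passed in 0 of 8 fits lacking 1 library. The number called was 0 without female replicate 3 and 1 without female replicate 1 or male replicate 2 or 3. Frzb missed the threshold without male replicate 3 (0.063) and without female replicate 3, and Sfrp1 held in 4 of 8 fits, with 0.057 without male replicate 2.

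Around Pdgfra, 6 ligand and receptor genes were tested, with 1 higher in females and 0 in males. Of the ligand genes, Pdgfb averaged 41.1 ± 3.66 CPM in females against 49.8 ± 5.53 in males without overlap (0.28, edgeR adjusted p = 0.081). Pdgfa was at -0.18, Pdgfc at 0.05 and Pdgfd at 0.07 in log2 fold change, none passing. The other receptor gene, Pdgfrb, was at -0.15 and did not pass. Its sexes did not overlap either, at 79.8 ± 5.41 CPM in females and 71.9 ± 2.16 in males. Pdgfrl, a receptor-like gene, averaged 4.98 ± 0.464 CPM in females against 3.56 ± 0.465 in males (-0.48, edgeR adjusted p = 0.039) and held in 2 of 8 fits lacking 1 library, with 0.097 without female replicate 1.

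Around Penk, 5 of 12 genes of opioid peptides, their processing and receptors were tested and 0 passed. The processing enzyme gene Cpe averaged 309 CPM in females against 308 in males, and the enkephalin-degrading peptidase gene Mme at 9.33 and 9.04. The delta opioid receptor gene Oprd1 was at 1.22 ± 0.0746 and 1.13 ± 0.181 CPM (-0.11, edgeR adjusted p = 0.75). The prohormone convertase genes Pcsk1 and Pcsk2 had 33 and 13 counts over all libraries, and the mu and kappa receptor genes Oprm1 and Oprk1 had 1 and 3.

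Around Dpep1 and Cpxm2, 8 dipeptidase and carboxypeptidase genes were tested, of which 1 passed as higher in males and 0 in females (median 0.04). Ggt5, a gamma-glutamyl transferase gene that acts before the dipeptidases on glutathione conjugates and leukotrienes, averaged 8.95 ± 0.8 CPM in females against 11.3 ± 0.869 in males (0.34, edgeR adjusted p = 0.042). It held in 2 of 8 fits lacking 1 library, with 0.11 without female replicate 2. The closest relatives of Cpxm2, Cpxm1 and Aebp1, had log2 fold changes of -0.29 and -0.04 and did not pass.

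Around Inmt, 8 small-molecule methyltransferase genes were tested, with 1 higher in females and 0 in males (median 0.04). Nnmt, the nicotinamide N-methyltransferase gene and a close relative of Inmt, averaged 3.31 ± 0.109 CPM in females against 2.31 ± 0.178 in males (-0.52, edgeR adjusted p = 0.018), the opposite direction to Inmt. It passed in all 8 fits lacking 1 library. Around Pi16, 6 further CAP family genes were tested and 0 passed, Pi15 having the smallest p (-0.45, adjusted p = 0.069).

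Markers of other cells moved with sex to different degrees. Of 12 cardiomyocyte markers 0 passed (median -0.00), and their summed level was 105537 to 107025 CPM in females and 99791 to 109896 in males. Macrophage markers summed to 279 to 319 CPM in females and 331 to 534 in males, without overlap, and 1 of 12 passed, Cd163 (0.35, edgeR adjusted p = 0.044), whose call held in 1 of the 8 fits lacking 1 library, with 0.12 without female replicate 2. Pericyte and smooth muscle markers summed to 3209 to 3465 and 3514 to 3653 CPM, also without overlap, but 7 of the 12 genes had a negative log2 fold change (median -0.07). Most of the sum was the desmin gene Des, at 2272 ± 90.9 CPM in females and 2495 ± 52.1 in males, which did not pass and which heart muscle also expresses. The 2 of 12 that passed, both higher in males, were Rgs5 (0.18, adjusted p = 0.017, 0.059 without male replicate 3) and Vtn (0.17, adjusted p = 0.043), whose call held in 0 of 8 fits lacking 1 library, with 0.13 without male replicate 3.

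White adipocyte markers had the most called genes of the 20 lists, with 9 of 11 higher in females (median -2.26). Among them were Adrb3 (-3.29) and Retn (-2.18), and none of these 9 overlapped between the sexes. The summed level did overlap, at 625 to 827 CPM in females and 541 to 636 in males. Most of that sum was Pnpla2 (421 ± 24.3 CPM in females, 451 ± 13.3 in males) and Lipe (91.0 ± 12.2 and 80.3 ± 9.39). Pnpla2 and Lipe, named after their values were seen, did not pass. Of 11 endothelial markers 1 was higher in males, Tie1 (0.20, edgeR adjusted p = 0.045), which held in 1 of those 8 fits, with 0.12 without male replicate 3. The remaining lists gave 0 called genes, and the smallest adjusted p were, where reported, 0.11 (epicardial, Aldh1a2), 0.12 (valve, Cytl1), 0.16 (lung, Scgb1a1) and 0.40 (atrial, Kcnj3). Summed levels in females and males were 108 to 136 and 102 to 127 CPM for epicardial markers and 51.8 to 64.0 and 45.6 to 54.5 for valve markers. The part of these cells in the members' differences was not tested. The lung signal in female replicate 3 came with 4.85 CPM of Inmt, within the range of the other females, and with the highest female values of Dpep1, Pi16, Dpt, Penk and Wif1.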

How the data were processed

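Gene expression was measured by RNA sequencing in 8 heart libraries, 4 female and 4 male, made from Trizol-extracted RNA by an Illumina TruSeq kit, per the labels' protocols. The authors deposited raw counts for 49315 genes. The submitters' processing notes name Trimmomatic 0.36, STAR 2.5.2b, featureCounts of Subread 1.5.2 and GRCm38 (mm10), without order; annotation version, strand setting and treatment of multi-mapping reads are not given in the sources used here. Single-sample tables, whose counts were identical (100%), gave the coordinates and exon lengths. The deposited normalized table was not used. Of the IDs, 48970 matched a symbol.

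Genes were kept with filterByExpr (minimum count 10, minimum total 15), which left 16180, TMM-scaled, and compared by the quasi-likelihood test of edgeR 4.0.16 in R 4.3.3, with p-values adjusted by Benjamini and Hochberg's method over these genes (threshold 0.05). Log2 CPM used a prior count of 2. RPKM is CPM per kilobase of summed exon length. An SE was taken as the size of the log2 fold change over the square root of the F statistic. Totals of 32746054 to 47097765 counts set the precision. The fit was also run on counts simulated from its own means and its trend of spread with level, without libraries that stand apart. Nothing above rests on that run.

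The members and the 20 gene lists (232 genes) were chosen with earlier results of these data known. Named genes are the members, up to 2 called genes per list and direction with the smallest p, or else the 1 gene of smallest p, and the 5 genes most like the identity mean that carry no clone name. The named gene of 1 list is not reported here. Alternatives were DESeq2 size factors, DESeq2 1.42.0, limma-voom of limma 3.58.1, 2 other filters, a block for the replicate number, omission of each library, other identity measures and a prior count of 0.5. All alternatives were planned ahead of these fits, but with earlier results of these data known.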

Additional observations from a re-analysis of the deposited data

Results flagged for a closer look

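In 8 of 76 groups of 4 values (members, state genes relative to identity, and summed lists, by sex) 1 library lay far from the other 3 relative to the group's range. Chance gives about 1 in 20 groups, and the groups share libraries.

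Among the members, Pdgfra was high in female replicate 2 (50.1 CPM, the other females 46.9 to 47.3). Dpt was low in female replicate 2 (97.4 CPM, the others 105 to 107) and in male replicate 4 (78.3 CPM, the others 94.9 to 96.1). The summed pan-fibroblast markers, with Gsn the largest part, were high in female replicate 3 (4502 CPM, the others 4232 to 4251). They were low in male replicate 4 (3587 CPM, the others 4014 to 4034). That male library is also the one with few atrial transcripts. Macrophage markers were high in male replicate 1 (534 CPM, the others 331 to 337), the library with the highest Inmt and Dpep1. Lung epithelial markers were high in female replicate 3 (24.3 CPM) and, at a far lower level, in male replicate 2 (1.34 CPM, the other males 0.679 to 0.764).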

How the results depend on the processing

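The members were chosen with the contrast in view, so their calls in refits of the same libraries are a description and no support: 4 passed in 12 of 14 alternative fits and 5 in 2, the DESeq2 test and the fit with no filter, where Tcf21 was added. The log2 fold changes of the 10 members moved by less than the spread between replicates in each alternative, and so did the state minus identity differences. The count of all genes called was 613, with 964 in DESeq2 and 315 to 490 with 1 library left out. The fibroblast list genes called numbered 14, with 19 in DESeq2 (18 higher in females and 1 in males) and 4 to 12 with 1 library left out. With the replicate number as a block, 427 genes, 10 fibroblast list genes and 4 members were called. Same-numbered libraries did not deviate together (correlations -0.015, -0.024, 0.103 and -0.12), and 1 of the 4 numbers correlated best with its own, so the numbers are not taken as pairs. The lowest counts in a library were 95 for Penk, 149 for Wif1 and 160 for Inmt, and the largest SE was 0.15 for Cpxm2. Male libraries were all deeper than female ones, so depth and sex cannot be told apart.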
